A study of Mus musculus with 4 samples.

Results

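The genes described here encode the 4 classic groups of axon guidance cues and their receptors: semaphorins with plexins and neuropilins, ephrins with Eph receptors, Slits with Robo receptors, and netrins with Unc5 receptors. They were chosen by gene name from a table of m6A peaks in mouse cerebral cortex, and 229 of its 33977 peak rows, in 59 of 10415 genes, carry such a name. The rows form 148 of the table's 21845 sites, a site being a cluster of rows that overlap by at least 1 base on a strand. N6-methyladenosine (m6A) is a methyl mark on RNA, and peaks are stretches where RNA fragments pulled down with an antibody against the mark pile up. The libraries came from the cortex of mice given a sham procedure or repetitive mild traumatic brain injury (rmTBI). Each group has 2 libraries that the labels call m6A, numbered 0 and 1. The labels give "sham" and "TBI" as the treatments and the repetitive mild form in the series title. The sources used here do not give the strain, age or sex, how or how long before sampling the mice were injured, whether mice were pooled, or what the numbers 0 and 1 stand for. The p-values below therefore weigh the group difference against the spread between these libraries. That spread may be technical or go with the numbers, so the p-values may not speak to differences between mice. Each group mean below averages a number 0 and a number 1. Should the numbers stand for libraries of unlike kind, every such mean and fold would mix the kinds, and the 2 libraries of a number are therefore also compared on their own. The labels give the same antibody for all 4 libraries, and taken so, more counts can mean more methylation or more transcript, and fewer cells of a type cannot be told apart from less RNA per cell.

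Guidance cues steer growing axons during development by attracting or repelling the growth cone, the motile tip of the axon, and many of them stay expressed in adult brain at synapses and in vessels. Secreted class 3 semaphorins bind a neuropilin, which lends its plexin partner the affinity for the ligand, whereas the membrane-bound semaphorin classes mostly bind plexins directly. Ephrins are anchored in the membrane of one cell and Eph receptor tyrosine kinases in that of the next, so that signals can pass both ways. Slits repel axons through Robo receptors at the midline, and netrins attract through DCC or repel through Unc5 receptors. m6A is deposited mostly on a short consensus around an adenosine, of which GGAC is a common form, and is known to be dense around stop codons and in 3' UTRs.

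Some of the guidance rows begin at the first transcribed base of their gene, which ties the rows to transcripts and shows how the coordinates were read. The processing notes name the GRCm39 build, yet all 229 rows overlap their gene's span in the RefSeq annotation of GRCm38.p6 and 225 lie inside it, so positions are given as GRCm38. At 5 genes a row starts within 5 bases of a RefSeq start, and these starts are printed from RefSeq (GRCm38.p6), 5' to 3', with 10 bases before the start in lower case and the first 20 transcribed bases in capitals.
Plxna2, chr1:194619819-194619848, plus strand: cgccaccggaGCTGAGCTGAGCCGCGCTGC
Nrp2, chr1:62703307-62703336, plus strand: gcgcgtaatcGGATCGCTCTGCCGCGGCTC
Epha7, chr4:28813121-28813150, plus strand: ccccctaattGATATTATTGGAGTGTGGAG
Ephb1, chr9:102354674-102354703, minus strand: cctcccccgtCAGTCTGGCCCGCTCTGTCC
Unc5b, chr10:60831562-60831591, minus strand: ggcgctgggcATTGTGGCCGGCGGCAGGGC
The peak edge lay at the RefSeq start itself for Ephb1 and Unc5b, 1 base before it for Epha7, 3 bases before it for Nrp2 and 5 bases before it for Plxna2. GGAC, searched on both strands of the first 50 transcribed bases, was found on the transcribed strand at 0 of the 5 genes and on the other strand at 2. Of 32851 such windows in the RefSeq table, 18.9% hold it on the transcribed strand and 17.4% on the other. RefSeq promoter entries matched 51 of the 59 genes by symbol.

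By the authors' classes, 124 guidance rows (54.1%) lay in 3' UTRs, 81 (35.4%) in coding sequence and 24 (10.5%) in 5' UTRs, against 39.7%, 50.4% and 6.24% of all rows. A guidance gene had a median of 3 rows (1 to 13) and the median gene of the table had 2. Plxna2 had 13 rows, and Epha5, Epha6 and Nrp2 had 11 each. The semaphorins made up 61 rows in 18 genes, the Eph receptors 61 in 13, the plexins 35 in 7, the Robo receptors 17 in 4, the neuropilins 16 in 2, the ephrins 16 in 6, the Unc5 receptors 10 in 4, the Slits 9 in 3 and the netrins 4 in 2. No row of another gene shared a site with them, and none overlapped a row on the opposite strand. Rows come from peak sets called separately in sham and in rmTBI. Both sets had a row at 73 of the 148 guidance sites (49.3%, against 49.6% of all sites), the rmTBI set alone at 35 (23.6%, against 21.1%) and the sham set alone at 40 (27.0%, against 29.3%). Sites of a single set were dim: their rows had a median level of 2.03 CPM, which is counts scaled to a common library size, in the rmTBI set and 2.25 CPM in the sham set, against 9.34 CPM where both sets had a row. The whole table showed the same pattern, with medians of 2.27 and 3.68 CPM against 11.3 CPM.

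Library totals over all peaks ran from 13753600 to 26888072 counts, and the libraries numbered 1 were the deeper ones in both groups. The guidance rows held 0.275% to 0.312% of these counts, with a median of 72 to 172 counts per row in a library. Levels below are CPM scaled by TMM, a factor that aligns the bulk of the rows between libraries, and folds are the log2 of rmTBI over sham from the edgeR quasi-likelihood test. That test adjusts p-values by Benjamini-Hochberg over the 33415 rows that passed the filter on low counts, 224 of them guidance rows. Epha8 is the 1 gene whose rows (2 of 2) did not pass, together with 1 of 2 rows of Ephb4 and 2 of 5 of Sema5a. Markers of other brain regions and of several cell types differed between the same libraries. Summed thalamic markers reached 645 and 748 CPM in sham libraries 0 and 1 and 99.1 and 127 CPM in their rmTBI counterparts, with 10 of 11 listed genes tested, all 10 lower in rmTBI, and Prkcd without a peak. Summed striatal markers were 1369 and 1258 CPM against 731 and 661 CPM (8 of 9 tested, all 8 lower, Tac1 without a peak), and oligodendrocyte markers 752 and 731 CPM against 499 and 465 CPM (8 of 9 tested, all 8 lower, Mag without a peak). Choroid plexus and ependymal markers summed to 39.6 and 40.9 CPM against 12.6 and 12.1 CPM (4 of 5 tested, 3 lower and 1 higher, Ttr without a peak). Markers of cortical excitatory neurons were present in every library, at 962 and 1034 CPM in sham and 1345 and 1386 CPM in rmTBI (12 of 12 tested, 10 higher). Of the other lists, 4 of 5 tested genes of inhibitory neurons, 5 of 6 of microglia and 3 of 4 of endothelium were higher in rmTBI. For astrocytes 2 of 5 were higher, for oligodendrocyte progenitors 1 of 3 and for meninges 1 of 2. Guidance genes are expressed in many of these cells, and the part of such markers in the folds below was not tested.

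No guidance row passed the test between rmTBI and sham: 0 of 224 rows had an adjusted p under 0.05, with every adjusted p at 1.0, where 0.0868% of all rows were called (29 of 33415). DESeq2 called 0 guidance rows and 0.401% of all rows. At an unadjusted p under 0.05 there were 5 guidance rows (2.23%, against 2.84% of all rows), namely 2 of Epha5 and 1 of Plxna2 on the higher side and 2 of Sema7a on the lower side. On the higher side 3 rows compare with 0.73% of all rows, and on the lower side 2 rows compare with 2.11%. Both rmTBI libraries lay above both sham libraries at 40 guidance rows in 18 genes (17.9%, against 12.3% of all rows), and below both at 23 rows in 12 genes (10.3%, against 12.3%). The log2 fold was above 0 at 130 of the 224 rows (58.0%, against 52.6%). Over genes, each taken at its tested row with the highest mean level, the median log2 fold was 0.07, with 34 genes above 0 and 24 below, beside a median of 0.01 over all 10209 genes tested. The folds of the 58 genes ran from -0.64 to 0.66.

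**Figure D1:**
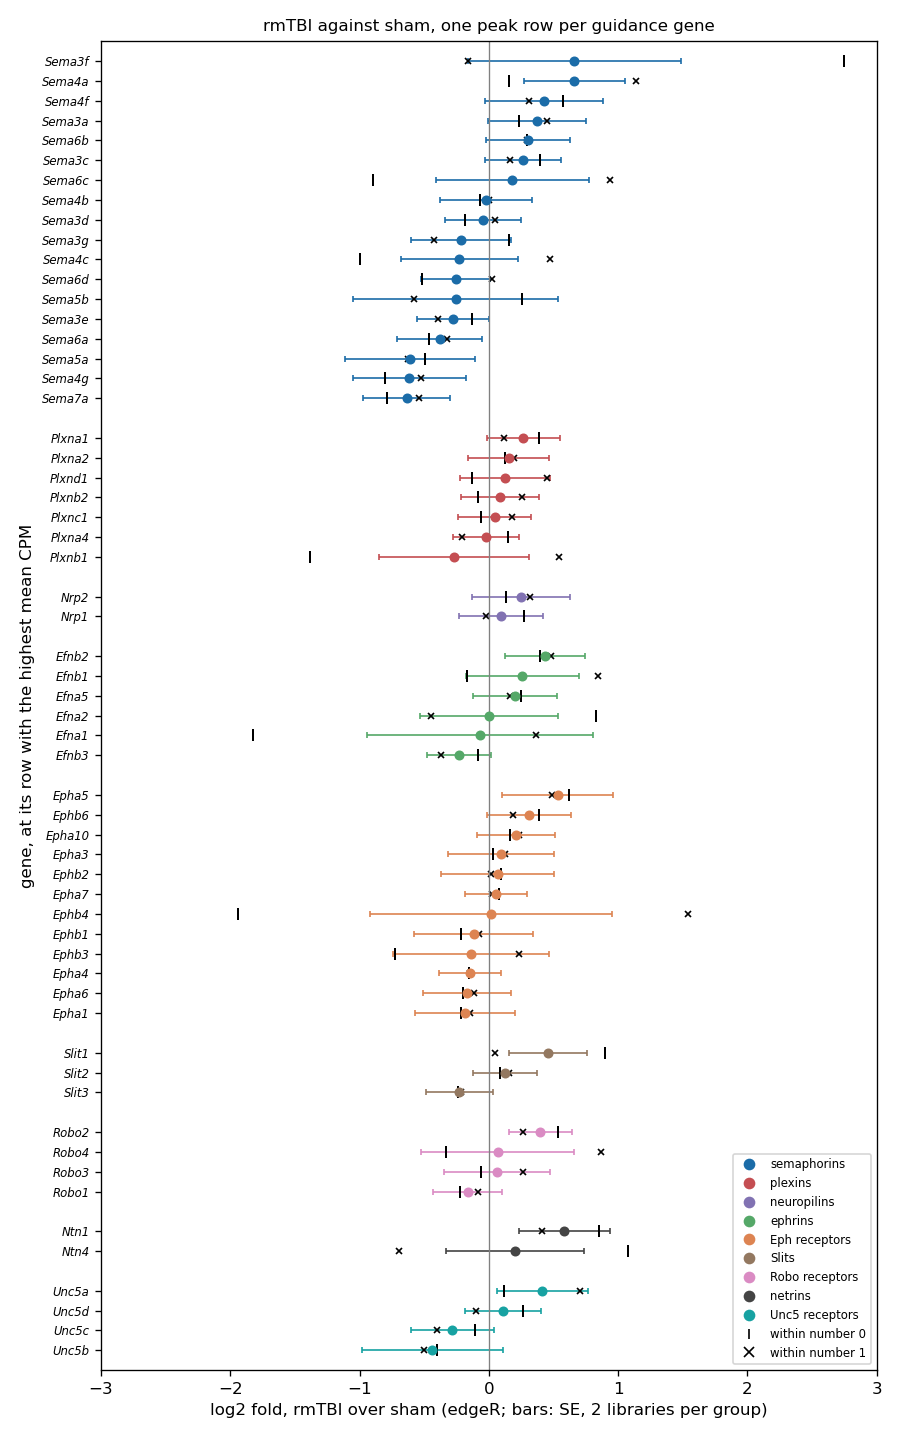
Log2 fold of rmTBI over sham (x axis) for the 58 guidance genes tested, each at its row with the highest mean CPM and ordered within 9 families (y axis). Points are edgeR estimates with bars of 1 SE from 2 libraries per group, the upright tick is the difference between the libraries numbered 0 and the cross that between those numbered 1. The 4 lowest semaphorins sit between -0.64 and -0.38, and Efnb2, Epha5, Slit1, Robo2 and Ntn1 between 0.40 and 0.58.

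The families leaned in different directions without any row passing the test. The median log2 fold over genes was -0.13 for the semaphorins (7 genes above 0, 11 below) and -0.09 for the Unc5 receptors (2 above, 2 below). It was 0.09 for the plexins (5 above, 2 below), 0.17 for the neuropilins (2 above), 0.10 for the ephrins (4 above, 2 below), 0.12 for the Slits (2 above, 1 below), 0.07 for the Robo receptors (3 above, 1 below) and 0.39 for the netrins (2 above). For the Eph receptors it was 0.03 (7 above, 5 below), and DESeq2 turned that to -0.03 while total-count scaling turned no family. These medians also depended on single libraries: leaving out 1 library in turn reversed the sign of each family's median at least once, except for the Slits and netrins. The netrin median, over 2 genes, ran from 0.087 to 0.83 in this way, and it was 0.96 between the number 0 libraries and -0.14 between the number 1 libraries. The median of the neuropilins then ran from -0.22 to 0.59 and that of the Robo receptors from -0.36 to 0.47. Over genes, 15 ligands lay above 0 and 14 below (median log2 fold 0.0006), and 19 receptors above and 10 below (median 0.07). Over rows, ligands lay above 0 at 39 and below 0 at 49, and receptors above 0 at 91 and below 0 at 45. Groups were apart on the higher side at 29 of 136 receptor rows (21.3%) and on the lower side at 3 (2.21%), and for ligands at 11 of 88 rows (12.5%) and 20 (22.7%), beside 12.3% of all rows on either side. Plxna2 and Epha5 alone held 8 and 5 of the receptor rows apart on the higher side. Sema7a and Efnb3 held 4 each of the ligand rows apart on the lower side. Rows of a gene overlap and share reads, and the difference between ligands and receptors was not tested.

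Among the semaphorins, 39 of 59 tested rows lay below 0 and 20 above, with the same split under total-count scaling and 38 below 0 under DESeq2. Sema7a, a semaphorin tethered to the membrane by a lipid anchor, lay lower in both rmTBI libraries at both of its sites. Its 3' UTR row at chr9:57962205-57962565 held 10.8 and 9.51 CPM in sham (libraries 0 and 1, the order kept throughout) and 6.29 and 6.12 CPM in rmTBI. The groups did not overlap there, and the log2 fold was -0.71 (SE 0.26, unadjusted p = 0.026, adjusted p = 1.0, edgeR quasi-likelihood test). The brighter Sema7a row at chr9:57961336-57962026 held 16.8 and 24.0 CPM in sham and 9.70 and 16.4 CPM in rmTBI (log2 -0.64, SE 0.33). All 5 of its rows, 4 of them in the 3' UTR, lay between -0.72 and -0.49, also under the other scalings on the same side of 0.

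Sema4g, a transmembrane semaphorin of class 4, lay below 0 at its 3 rows, with log2 folds from -1.02 to -0.62. Its coding row at chr19:45001241-45001422 held 4.14 and 3.77 CPM in sham and 2.43 and 2.52 CPM in rmTBI (log2 -0.67, SE 0.31, unadjusted p = 0.066, adjusted p = 1.0, edgeR). Its long 5' UTR row held 4.42 and 2.08 CPM in sham and 1.52 and 1.62 CPM in rmTBI. The groups were apart at both of these rows and overlapped at the 3' UTR row, which held 17.4 and 32.0 CPM in sham and 9.93 and 22.2 CPM in rmTBI. There each rmTBI library was below the sham library of its own number, and the libraries numbered 1 stood above those numbered 0 in both groups. Sema6a, a transmembrane semaphorin that binds A-type plexins, lay below 0 at 5 of 5 rows (-0.51 to -0.36), and its relative Sema6d at 6 of 7 rows (-0.91 to 0.14). Sema3e, the secreted ligand of Plxnd1, had the highest CPM of the family at a single row, not divided by length. Its coding row of 12101 bases held 32.0 and 45.1 CPM in sham and 29.3 and 34.4 CPM in rmTBI, overlapping groups with a log2 fold of -0.28 (SE 0.28).

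Sema3a, the secreted semaphorin known for collapsing growth cones, went the other way. Its 3' UTR row at chr5:13599210-13600199 held 19.3 and 31.4 CPM in sham and 22.7 and 43.1 CPM in rmTBI, which overlapped (log2 0.38, SE 0.38). All 4 Sema3a rows lay above 0, from 0.35 to 0.90, the highest of them a dim 3' UTR row of 0.927 and 1.39 CPM in sham and 1.59 and 2.73 CPM in rmTBI. Without rmTBI library 1 the fold of the 3' UTR row turned to -0.16. Of the other semaphorins, Sema4a and Sema3f had the highest gene-level folds, both 0.66, at rows of mean level 2.86 and 1.12 CPM.

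**Figure D2:**
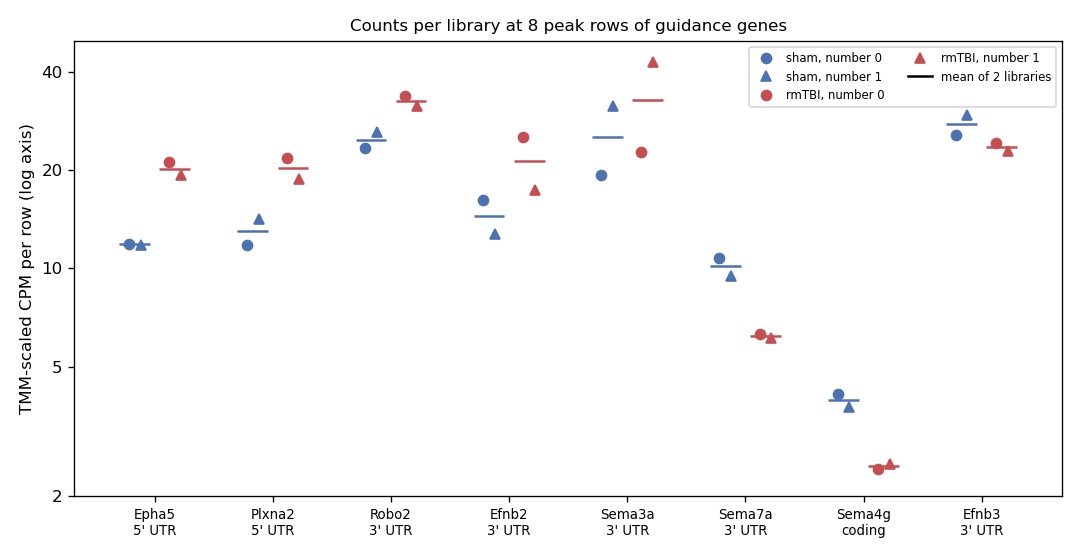
TMM-scaled CPM on a log axis (y axis) in each of the 4 libraries at 8 rows of guidance genes (x axis), with circles for libraries numbered 0, triangles for those numbered 1 and a line at each group's mean of 2 libraries. The rows were chosen after their values were seen. For Epha5, Plxna2, Efnb2 and Sema4g the gene's brightest row, at which the groups overlapped, is not shown. Of all guidance rows, 17.9% were apart on the higher side and 10.3% on the lower side. The rmTBI points lie above both sham points at Epha5 (11.9 and 11.8 against 21.2 and 19.3 CPM), Plxna2, Robo2 and Efnb2, below both at Sema7a, Sema4g and Efnb3, and overlap the sham points at Sema3a.

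The plexins, the signalling receptors of semaphorins, lay above 0 at 28 of 35 rows, under all 3 scalings. At the A-type plexins, the partners of neuropilins and of class 6 semaphorins, this held for 24 of 28 rows, and 15 of these 28 rows (53.6%, against 12.3% of all rows) had both rmTBI libraries above both sham libraries. These 28 rows form only 16 sites in 3 genes and rows of a site share reads, so they do not count as separate results. Over genes, 2 A-type plexins lay above 0 and 1 below, and groups overlapped at the brightest row of each. Plxna2 accounted for 8 of those 15 rows, with groups apart at 5 of its 7 sites. Groups were apart at 2 of 3 sites of Plxna1 and 2 of 6 of Plxna4. Its first 5' UTR row, at chr1:194619824-194620005 and starting at the transcript start printed above, held 11.8 and 14.2 CPM in sham and 21.8 and 18.7 CPM in rmTBI. The log2 fold was 0.63 (SE 0.26, unadjusted p = 0.041, adjusted p = 1.0, edgeR). The overlapping row of the sham set held 16.6 and 15.4 CPM against 25.5 and 21.1 CPM (log2 0.54, SE 0.25). A last 3' UTR row of the gene, at chr1:194814528-194814799, held 29.0 and 25.3 CPM against 40.2 and 33.4 CPM (log2 0.44, SE 0.25), so that both ends of the transcript showed groups that did not overlap. Its brightest row, which spans 23590 bases of the genome from the 5' UTR onwards, held 68.7 and 44.6 CPM in sham and 74.8 and 51.1 CPM in rmTBI, with overlap and a log2 fold of 0.15 (SE 0.31). In all, 12 of 13 Plxna2 rows lay above 0.

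Plxna1 lay above 0 at its 5 rows (0.14 to 0.48), its brightest at 11.6 and 9.91 CPM in sham and 15.2 and 10.8 CPM in rmTBI, which overlapped (log2 0.27, SE 0.28). Plxna4 split by site, with 7 rows above 0 and 3 below (-0.78 to 0.32). Its most distal 3' UTR site held 15.6 and 14.0 CPM against 21.1 and 15.9 CPM (log2 0.32, SE 0.27). Its brightest 3' UTR row held 20.8 and 21.3 CPM against 23.0 and 18.5 CPM (log2 -0.02, SE 0.25). The 4 plexins of other types had 7 rows, 4 above 0 and 3 below, and their groups overlapped at each of them. Of all rows, 12.3% were apart on the higher side and 12.3% on the lower side, so 7 rows are too few to read this as a difference.

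The neuropilins are the ligand-binding co-receptors. Nrp2 had 9 of 11 rows above 0 and Nrp1 3 of 5. The coding row of Nrp2 that begins at the printed start held 38.5 and 64.3 CPM in sham and 42.3 and 80.0 CPM in rmTBI, a log2 fold of 0.25 (SE 0.38) with overlapping groups. A dimmer Nrp2 row in the 3' UTR, at chr1:62795828-62796099, held 4.56 and 4.61 CPM in sham and 6.67 and 6.30 CPM in rmTBI, without overlap (log2 0.50, SE 0.26). Nrp1 at its brightest row held 21.4 and 35.6 CPM in sham and 25.9 and 35.1 CPM in rmTBI (log2 0.10, SE 0.32).

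**Figure D3:**
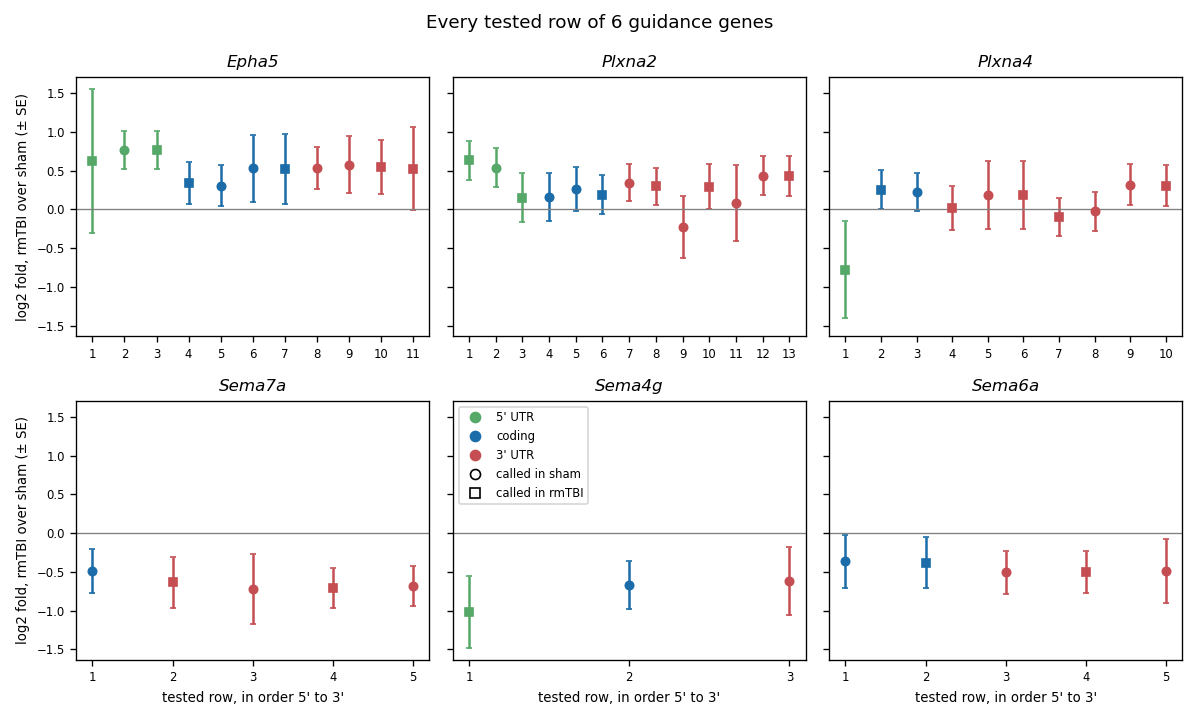
Log2 fold of rmTBI over sham with bars of 1 SE (y axis) at every tested row of 6 guidance genes, numbered along each transcript from 5' to 3' (x axis), coloured by class, with circles for rows called in sham and squares for rows called in rmTBI. The genes were chosen after their values were seen. The 11 rows of Epha5 sit between 0.31 and 0.77, 12 of 13 rows of Plxna2 above 0, and all rows of Sema7a, Sema4g and Sema6a below 0.

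Among the Eph receptors, 36 of 58 tested rows lay above 0. Epha5, a receptor of A-type ephrins that is abundant in forebrain neurons, had all 11 of its rows above 0 (0.31 to 0.77) under each of the 3 scalings, and groups apart at 3 of its 7 sites. The 5' UTR row at chr5:84416668-84417089 held 11.9 and 11.8 CPM in sham and 21.2 and 19.3 CPM in rmTBI. This gave a log2 fold of 0.77 (SE 0.24, unadjusted p = 0.014, adjusted p = 1.0, edgeR), the smallest p of all guidance rows, and the sham set's row at this site gave 0.77 as well. A 3' UTR row at chr5:84067241-84067482 held 12.98 and 10.1 CPM in sham and 18.4 and 15.0 CPM in rmTBI, also without overlap (log2 0.54, SE 0.27). The brightest Epha5 row, in coding sequence at chr5:84331497-84331888, held 34.4 and 72.8 CPM in sham and 53.0 and 102 CPM in rmTBI. Its groups overlapped, because the libraries numbered 1 were high in both groups, and its log2 fold was 0.53 (SE 0.43). Within the libraries numbered 0 it was 0.62 and within those numbered 1 it was 0.49, but without rmTBI library 1 the fold of the fit was -0.02.

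Epha4, the receptor with the widest range of ephrin partners, lay below 0 at 5 of 5 rows (-0.28 to -0.15). Its brightest row held 78.1 and 67.8 CPM in sham and 70.4 and 61.4 CPM in rmTBI, which overlapped. Epha6 had the highest CPM of any guidance row, not divided by length, at 471 and 270 CPM in sham and 411 and 249 CPM in rmTBI (log2 -0.17, SE 0.34), in a coding row that spans 204153 bases of the gene. Other Epha6 rows split into 6 above 0 and 4 below. Epha7 at its 5' UTR row, which begins at the printed start, held 32.7 and 31.8 CPM in sham and 34.6 and 32.3 CPM in rmTBI, a log2 fold of 0.05 (SE 0.24). The B-type receptors had 8 rows above 0 and 9 below, and no row at which their groups were apart. Of all rows, 12.3% were apart on the higher side and 12.3% on the lower side.

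Of the ephrins, Efnb2 and Efnb3, transmembrane ligands that can signal back into their own cell, lay on opposite sides. Efnb2 lay above 0 at 4 of 4 rows (0.43 to 0.64). Its 3' UTR row at chr8:8619859-8620100 held 16.3 and 12.7 CPM in sham and 25.3 and 17.4 CPM in rmTBI, without overlap (log2 0.56, SE 0.29, unadjusted p = 0.095, adjusted p = 1.0, edgeR). A long row across 21475 bases held 55.1 and 36.5 CPM in sham and 72.7 and 50.9 CPM in rmTBI (log2 0.43, SE 0.31), with overlap. Efnb3 lay below 0 at 4 of 4 rows (-0.45 to -0.22), all with groups apart. Its 3' UTR row held 25.7 and 29.6 CPM in sham and 24.3 and 22.9 CPM in rmTBI (log2 -0.23, SE 0.25). Efna5, a ligand of EphA receptors, lay above 0 at its 3 rows (0.13 to 0.42).

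Slit1 lay above 0 at both of its sites with groups apart, at 4.92 and 6.69 CPM in sham and 9.25 and 6.91 CPM in rmTBI for the 5' UTR row (log2 0.46, SE 0.30). The libraries numbered 1 differed there by a log2 of 0.04 and those numbered 0 by 0.90. Slit2 at its brightest 3' UTR row held 9.41 and 9.25 CPM in sham and 10.01 and 10.3 CPM in rmTBI (log2 0.12, SE 0.25), and Slit3 held 9.34 and 10.8 CPM against 7.88 and 9.25 CPM (log2 -0.23, SE 0.26). The Slit3 groups were narrowly apart on the lower side. Of the receptors, Robo2 held 23.4 and 26.2 CPM in sham and 33.9 and 31.5 CPM in rmTBI at a 3' UTR row at chr16:73895064-73895365, without overlap (log2 0.40, SE 0.25). Robo1 held 22.8 and 17.7 CPM against 19.5 and 16.7 CPM at a coding row (log2 -0.16, SE 0.26), with overlap. Robo4, the endothelial member of the family, lay at 4.71 and 1.28 CPM in sham and 3.71 and 2.41 CPM in rmTBI.

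Ntn1, the founding netrin, had 1 row, at 2.35 and 4.10 CPM in sham and 4.32 and 5.47 CPM in rmTBI, without overlap (log2 0.58, SE 0.35). Of its repulsive receptors, Unc5b lay below 0 at 3 of 3 rows. The 5' UTR row that begins at the printed start held 5.35 and 8.01 CPM in sham and 2.58 and 5.47 CPM in rmTBI (log2 -0.71, SE 0.40). The rmTBI library numbered 1 lay just above the sham library numbered 0, so that these groups overlapped although each rmTBI library was below the sham library of its number. Its long coding row held 36.9 and 14.8 CPM in sham and 27.9 and 10.4 CPM in rmTBI (log2 -0.44, SE 0.55). Unc5c lay at -0.28 (SE 0.32), Unc5d at 0.11 (SE 0.29) and Unc5a, at a dim row, at 0.41 (SE 0.35).

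Since the libraries numbered 1 stood apart from those numbered 0 at many rows, each number was also compared on its own. The log2 difference had the same sign within both numbers at 141 of 224 guidance rows, 87 higher (38.8%, against 32.0% of all rows) and 54 lower (24.1%, against 28.5%), and opposite signs at 83 (37.1%, against 39.6%). It was above 0.5 within both numbers at 5 rows (2.23%, against 2.01%), in Epha5, Efnb2 and Sema3a. It was below -0.5 within both at 10 rows (4.46%, against 3.54%), in Sema7a, Sema4g, Sema6d, Unc5b and Ephb2. The split between numbers went with row length. At guidance rows spanning under 1000 bases the median log2 ratio of library 1 to library 0 was 0.28 in sham and 0.35 in rmTBI, and at the 18 rows over 5000 bases it was -0.35 and -0.45. Over the whole table these medians were 0.22 and 0.28 for short rows and -0.32 and -0.33 for long ones.

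**Figure D4:**
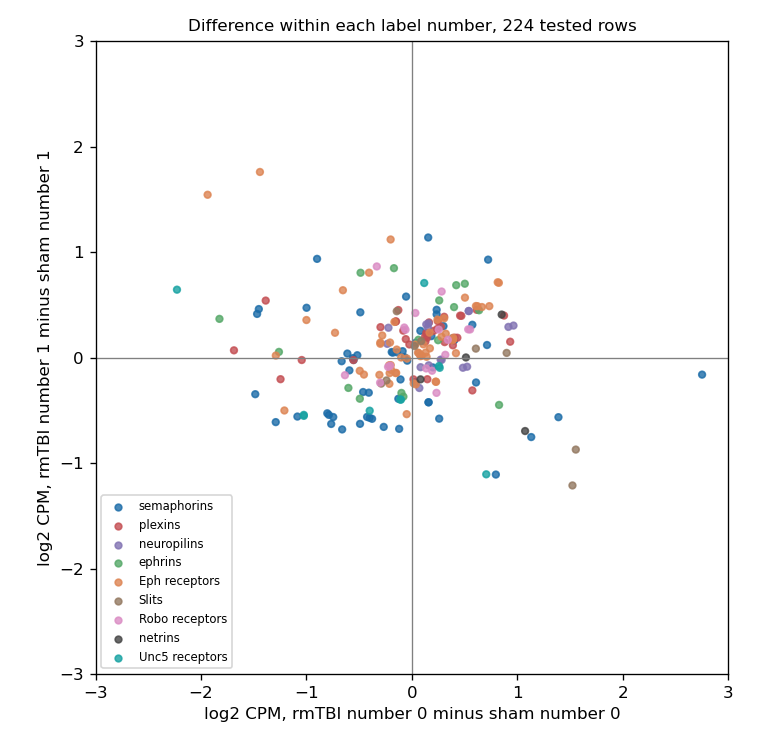
Log2 CPM difference between rmTBI and sham within the libraries numbered 0 (x axis) and within those numbered 1 (y axis) at the 224 tested guidance rows, 1 point per row, coloured by family. At 87 rows both differences are above 0 and at 54 both are below, and 23 of those 54 are semaphorin rows.

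Other genes of the pathway were taken as a list of 82. It mixes further ligands, receptors and adhesion molecules with adaptors, GTPase regulators and cytoskeletal effectors, and 65 of its genes had a tested row. Of their 293 rows 0 were called (0.0868% of all rows were), 10 had an unadjusted p under 0.05 (3.41%, against 2.84% of all rows), and DESeq2 called 3 (1.02%, against 0.401%). Of the 10, 9 were lower (3.07%, against 2.11%) and 1 was higher (0.341%, against 0.73%). Over genes 40 lay above 0 and 25 below, with a median log2 fold of 0.03. Rgs3, a regulator of G protein signalling that can couple to B-type ephrins, had the smallest p. It held 13.7 and 15.1 CPM in sham and 3.03 and 4.86 CPM in rmTBI at its brightest coding row, with a log2 fold of -1.84 (SE 0.31, adjusted p = 0.170, edgeR). Vav3, an exchange factor that acts below Eph receptors, held 16.2 and 11.1 CPM in sham and 4.70 and 2.30 CPM in rmTBI (log2 -2.0, SE 0.40, adjusted p = 0.318, edgeR). These folds are larger than any at the brightest row of a gene in the ligand and receptor families above. Dcc, the attractive netrin receptor, lay at -0.15 (SE 0.32) and its relative Neo1 at -0.01 (SE 0.26).

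The authors' deposited table gives a log2 value per peak that tracks how the ratio of number 1 to number 0 differs between rmTBI and sham, and not the difference between rmTBI and sham. Across the 229 guidance rows, which share these libraries and are not replicates, its Pearson r with that difference of ratios was 0.99, and across the 224 tested rows its r with the fold of rmTBI over sham was -0.18. The sources used here do not give what the numbers stand for. Should they be libraries of unlike kind, the authors' value would compare the kinds, and the folds given here would mix them. Which of these holds was not tested. In the authors' deposited lists 4 guidance rows were higher (0.815% of all rows were) and 1 was lower (0.43% of all rows were). The authors' deposited table gives log2 values of 4.52 for Ephb4, 3.89 for a 5' UTR row of Epha5, 2.81 for Efna1, 2.12 for Plxnb1 and -3.54 for Sema3f, each with an adjusted p of 0.998. These were dim rows. The Ephb4 row held 12 and 5 counts in the sham libraries and 2 and 20 in the rmTBI libraries, and the Epha5 row 11 and 8 against 3 and 34. The Sema3f row held 2 and 41 counts against 20 and 37. The groups overlapped at all 5 rows, and the log2 folds of rmTBI over sham were 0.02 for Ephb4, 0.63 for the Epha5 row, -0.07 for Efna1, -0.27 for Plxnb1 and 0.66 for Sema3f. For Ephb4 DESeq2 gave -0.15.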

How the data were processed

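The authors deposited whole-number counts of reads per peak and library, not normalized, for peaks called separately in sham and rmTBI and stacked into 1 table. The authors deposited beside them a log2 value per peak with its raw and adjusted p-value, whose test is not named. Per the submitters' processing notes STAR, DESeq2 and GRCm39 were used. The sources used here name no peak caller or counter and do not say whether strand was used.

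Groups follow the labels. The counts of all rows were fitted with edgeR 4.0.16 in R 4.3.3 (TMM, filterByExpr, quasi-likelihood test on group, Benjamini-Hochberg over 33415 rows), and a row was called at an adjusted p under 0.05. The SE is the log2 fold divided by the square root of F. A gene was represented by its tested row with the highest mean CPM. Rows were named by a rule. It took each family's highest level and its highest and lowest fold at 5 CPM or more. It added the 10 smallest p-values, rows in the authors' lists and genes whose groups were apart at every one of 2 or more sites. Other rows named were chosen after their values were seen. Members, families and lists were chosen with earlier results of these data known. Alternatives were total-count scaling, DESeq2 1.42.0, no filter, at least 10 counts in every library, a replicate block, each library left out and each peak set alone. The test was checked on simulated data, where it called 76 of 100 rows with a log2 fold of 2 in size. It called 100 of 100 rows at 4 and 8 of 32805 rows without a fold. Smaller folds were not simulated, so this does not show whether folds of the size seen at guidance rows could be called. Peak sequences beyond transcript starts and proteins were not used here.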

Additional observations from a re-analysis of the deposited data

How the results depend on the processing

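The count of called guidance rows stayed at 0 under total-count scaling, DESeq2, no filter, at least 10 counts in every library, either peak set alone and without each library. With the label number as a replicate block it was 41 rows in 13 genes (18.3%, against 10.6% of all rows). Of these, 27 rows in 7 genes were higher and 14 rows in 6 genes were lower. For the other pathway genes it was 45 of 293 rows (15.4%) in 21 genes. Whether the numbers pair the libraries is not known: the labels name no shared source, there are 2 pairs, and same-numbered libraries deviated together with r = 0.48. The block leaves 1 degree of freedom per row before the spread is shared. For the other pathway genes DESeq2 called 3 rows (1.02%, against 0.401% of all rows).

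The median over all guidance genes ran from -0.02 to 0.08 over the alternatives run. The semaphorin median was -0.039 in the rmTBI set, and the Slit median was -0.085 there and 0.078 in the sham set. Leaving out a library gave medians from -0.069 to 0.21 for the Eph receptors, -0.36 to 0.47 for the Robo receptors, -0.17 to 0.29 for the Unc5 receptors, -0.20 to 0.27 for the ephrins, -0.22 to 0.59 for the neuropilins, -0.13 to 0.30 for the plexins and -0.36 to 0.035 for the semaphorins. The comparison then sets unequal mixes of the numbers 0 and 1 against each other.

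Of the 35 named rows, 17 were called with the replicate block, beside 10.6% of all rows, and 0 under every other alternative run. The naming rule took rows partly by their p-values and folds in these same data. A high share among them was therefore built in, and no conclusion is drawn from it. Signs held for all 35 under total-count scaling and no filter, and for all of them that could be fitted with the stricter filter (31) and with the rows called in rmTBI (16) or in sham (19). DESeq2 turned that of Ephb4 to -0.15. Leaving out a library turned signs at 5, 9, 7 and 5 named rows, depending on the library. Their folds then ran from -2.77 to 0.66 for Efna1 and -0.020 to 1.17 for Epha5 (coding). The dim Epha5 5' UTR row of the authors' lists ran from -1.13 to 1.38. The range was -0.58 to 0.28 for Epha6, -1.59 to 1.34 for Ephb4 and -0.24 to 0.52 for Nrp1. It was -0.28 to 0.67 for Nrp2 and -0.011 to 0.50 for Plxna1. For the Plxna2 row that spans 23590 bases from the 5' UTR onwards it was -0.16 to 0.49. It was -0.20 to 0.13 for Plxna4, -1.14 to 0.18 for Plxnb1, -0.34 to 0.016 for Robo1 and -0.16 to 0.77 for Sema3a. It was -0.10 to 3.25 for Sema3f, -1.31 to 0.35 for Unc5b and -0.24 to 0.39 for Unc5d. No sign turned at the Epha5 5' UTR row with the smallest p (0.69 to 0.84). Nor did it at the first Plxna2 5' UTR row (0.50 to 0.77). The alternative without Unc5cl was not run, since the name rule takes no such row. Depth was a median of 72 to 172 counts per guidance row and library.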
